A study of Mus musculus with 4 samples.

Results

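Of 22880 regions where Deaf1 ChIP peaks of both replicates overlapped, 1593 (6.96%) lay within 1 kb of the ends of 2 or more different protein-coding genes, and these 1593 shared peaks at close gene pairs are described here. A shared peak was a block of peaks from both replicates on chromosomes 1 to 19 and X that overlapped by at least 1 bp, and its position was the mean of the highest-fold summit of each replicate. A gene end was either end of a RefSeq gene span on the mm10 mouse assembly, so the rule used distances alone and neither the strand of a gene nor the height of a peak. The label of a bidirectional pair, meaning starts of genes on opposite strands in reach and called divergent here, held for 814 of the 1593 (51.1%). At 291 of these 814 the gene spans overlapped at their 5′ ends, so that the genes run through each other there. At another 410 the strand of at least 1 gene that decides the layout was not known, and 369 had another layout.

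The study precipitated Deaf1 from C2C12 cells, a mouse myoblast line that can be differentiated into muscle fibres in culture. It has 2 Deaf1 ChIP samples and 2 input samples, all 4 from C2C12 cells labelled as myocytes, with no genotype or treatment given, while the series text calls them differentiated myoblasts. The chromatin was fixed with formaldehyde and cut enzymatically with a kit, and the labels' protocols also mention a control IgG. A peak list was used for each Deaf1 sample, with 65606 peaks in replicate 1 and 26503 in replicate 2, and none was used for the inputs, so no control was measured the same way. Whether the replicates are separate cultures is not labelled, and any spread between them could be technical. Peak lists hold no expression values, so the labelled cell type could not be checked against its markers, and the number of reads is not known.

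Close divergent genes share a short stretch of DNA that serves as promoter in both directions. Such promoters are common in mammals, are usually rich in CpG and poor in TATA boxes, and many of them serve genes of DNA repair, mitochondria and translation. Deaf1 is a transcription factor whose SAND domain binds DNA that holds the letters TTCG.

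The promoters below are examples of windows with and without TTCG at members of high and of lower fold. They are 300-base windows from RefSeq on GRCm38.p6, from 250 bases before a gene's start to 50 after it, written along the strand of the gene, and were chosen after their values were seen from the highest divergent members and the known divergent pairs. Capitals mark TTCG and its reverse complement CGAA. The first 3 come from members among the 12 with the highest fold and the last 3 from known divergent pairs of lower fold.
Yrdc, chr4:124850509-124850808, plus strand: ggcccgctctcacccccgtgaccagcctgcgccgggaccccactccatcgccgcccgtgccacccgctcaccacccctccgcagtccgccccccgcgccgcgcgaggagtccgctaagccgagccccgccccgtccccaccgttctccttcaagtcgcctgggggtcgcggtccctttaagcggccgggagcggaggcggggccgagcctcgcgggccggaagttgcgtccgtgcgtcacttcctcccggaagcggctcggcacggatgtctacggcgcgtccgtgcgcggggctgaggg
Bbof1, chr12:84408818-84409117, plus strand: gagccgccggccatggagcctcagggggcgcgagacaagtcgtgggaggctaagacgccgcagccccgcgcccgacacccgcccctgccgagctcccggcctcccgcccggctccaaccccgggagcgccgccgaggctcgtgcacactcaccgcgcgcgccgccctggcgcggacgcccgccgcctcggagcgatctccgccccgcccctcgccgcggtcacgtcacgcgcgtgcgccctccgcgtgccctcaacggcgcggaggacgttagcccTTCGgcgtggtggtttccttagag
Stk10, chr11:32533016-32533315, plus strand: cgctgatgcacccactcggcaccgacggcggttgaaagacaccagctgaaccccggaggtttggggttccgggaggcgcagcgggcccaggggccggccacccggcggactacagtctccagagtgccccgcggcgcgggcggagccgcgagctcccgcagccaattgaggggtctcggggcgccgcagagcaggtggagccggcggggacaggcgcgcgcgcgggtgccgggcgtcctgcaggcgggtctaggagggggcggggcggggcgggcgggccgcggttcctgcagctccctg
Hspe1, chr1:55087898-55088197, plus strand: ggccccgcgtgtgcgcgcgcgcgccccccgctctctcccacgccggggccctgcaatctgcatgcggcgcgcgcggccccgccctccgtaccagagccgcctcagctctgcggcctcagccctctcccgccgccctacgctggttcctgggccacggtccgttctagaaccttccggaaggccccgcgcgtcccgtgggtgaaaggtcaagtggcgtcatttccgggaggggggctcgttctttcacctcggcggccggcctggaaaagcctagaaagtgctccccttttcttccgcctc
Npat, chr9:53536797-53537096, plus strand: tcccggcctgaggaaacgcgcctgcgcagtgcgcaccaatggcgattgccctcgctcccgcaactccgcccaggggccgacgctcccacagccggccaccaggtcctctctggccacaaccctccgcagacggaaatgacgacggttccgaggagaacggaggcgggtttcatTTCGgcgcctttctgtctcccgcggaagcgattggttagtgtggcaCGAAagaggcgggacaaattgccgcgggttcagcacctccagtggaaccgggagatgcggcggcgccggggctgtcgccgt
Rpa3, chr6:8259092-8259391, minus strand: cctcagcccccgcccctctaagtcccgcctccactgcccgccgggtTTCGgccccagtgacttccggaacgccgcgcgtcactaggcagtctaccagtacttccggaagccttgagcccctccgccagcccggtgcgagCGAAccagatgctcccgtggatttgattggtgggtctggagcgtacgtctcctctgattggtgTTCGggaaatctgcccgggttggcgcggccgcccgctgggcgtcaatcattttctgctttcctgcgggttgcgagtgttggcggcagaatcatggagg

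The Yrdc window held no TTCG or CGAA and 44 CpG, and the summits of both replicates fell on its base 28. The Bbof1 window held 1 match and 50 CpG, with summits at bases 66 and 74, and its match lies near its 3′ end. The Stk10 window held 0 matches and 39 CpG, with summits at bases 209 and 242. Among the known pairs, the Hspe1 window held 0 matches and 36 CpG, with summits at bases 85 and 24. The Npat window held 2 matches and 35 CpG, with the summit of replicate 1 at base 42 and that of replicate 2 at base 349, beyond the window. The Rpa3 window held 3 matches and 28 CpG, and both summits lay outside it, at bases -73 and -72 with its first base counted as 1. The windows of the divergent partners held 0 matches at 1110065P20Rik, 2 at Entpd5 and 0 at Efcab9. Those of the known pairs held 0 at Hspd1, 0 at Atm and 2 at Umad1. Examples chosen after their values were seen do not show whether matches go with fold. A match is a description of the letters and does not mark a bound site.

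The highest members were led by Mtf1/1110065P20Rik/Yrdc on chromosome 4 (124850036 to 124851422), with a deposited fold enrichment of 30.0 in replicate 1 and 36 in replicate 2. Fold enrichment is the authors' ratio of the fragments covering a summit to the local background, and the deposited values fit a ratio with 1 added to both, which lowers folds most where the background is low. The summit was covered by 93 and 95 fragments. Its divergent genes are 1110065P20Rik and Yrdc, which makes a modified base of transfer RNA; Mtf1, the metal-responsive transcription factor, is touched at its finish, and its promoter window lies far upstream. Cnppd1/Retreg2 followed, with folds of 31.9 and 34.1, and then Bbof1/Entpd5, with 27.8 and 32.6. Retreg2 belongs to a family of endoplasmic reticulum shaping proteins and Entpd5 is a nucleoside diphosphatase of that organelle. The 12 highest also included Zbtb14/Gm49894 (27.0 and 34.5), Ccdc92/Zfp664 (29.1 and 30.7), Gm51877/Eif4enif1/Sfi1 (27.1 and 30.3) and Efcab9/Stk10 (28.1 and 28.7), which are divergent by the same rule. Zbtb14 and Zfp664 are zinc finger proteins, Eif4enif1 carries the translation factor eIF4E, and Stk10 is a protein kinase. Among these, the promoter table puts the Efcab9 start over 5 kb from the summits, so that its span end there comes from another gene model. The same table puts the Cnppd1 start more than 1 kb from the summits, which lie at bases -982 and -917 of the Cnppd1 window.

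The remaining 5 of the 12 were of other layouts. Tomm6/Prickle4, at the start of 1 gene and the finish of the other, had folds of 27.8 and 32.6, and Gm52215/Kif21a, of the same layout, had 26.1 and 32.6. Tomm6 is a subunit of the import pore of the outer mitochondrial membrane and Kif21a is a kinesin motor. Cpne1/Rbm12, whose genes start side by side on 1 strand, had folds of 27.1 and 31.9. The strand was not known for Tnfsfm13/Tnfsf12, with 29.1 and 29.2, nor for Ndst2/Camk2g, with 26.2 and 32.6. Camk2g is a calcium and calmodulin dependent kinase and Ndst2 modifies heparan sulfate. At all 12 replicate 2 had the higher fold, although replicate 1 had it at 1054 of all 1593 members (66.2%).

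At the other end, the 3 lowest members were all on chromosome 19. Eml3/Mta2 had folds of 2.40 and 2.54, Mrpl49/Fau had 2.94 and 2.60, and Vps51/Tm7sf2 had 4.41 and 2.82. The summit of Eml3/Mta2 was covered by 43 and 36 fragments, that of Mrpl49/Fau by 49 and 41 and that of Vps51/Tm7sf2 by 24 and 11, against medians of 56 and 38 over all members. Their local backgrounds were 17.3 and 13.6 fragments at Eml3/Mta2, 16 and 15.2 at Mrpl49/Fau and 4.67 and 3.25 at Vps51/Tm7sf2, against lowest values of 2.13 and 1.64 in the lists. Mta2 is a subunit of the NuRD complex, Mrpl49 a mitochondrial ribosomal protein and Fau the precursor of ribosomal protein S30. The members of middle rank were Fubp1/Dnajb4 (13.6 and 14.8), Rom1/Eml3 (14.3 and 13.8) and Fbxo44/Fbxo2 (16 and 11.4).

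Most members reached exactly 2 genes (1564 of 1593), 28 reached 3, and 1 reached 24. That peak, on chromosome 18 in the protocadherin gamma cluster, lay at the end that 24 nested gene models share and had folds of 7.02 and 6.45. Protocadherins of this cluster are cell adhesion proteins whose variable first exons join the same last exons. Among members with 3 genes, which were singled out after their values were seen, Adam15/Dcst1/Dcst2 had folds of 26.8 and 25.8 and Derpc/Chtf8/Utp4 had 21.4 and 27.3. The 1593 members touched 2820 different genes, in 1442 different combinations, and 150 combinations held 2 or more members. Over all 21631 coding genes, 51.9% had a shared peak within 1 kb of an end. A gene with only a clone or model symbol took part in 166 members, and 10 members rested on genes known to lie on the same strand that share an end. Genes of unknown strand, such as those of the protocadherin peak, could not enter this last count. Members made up 14.1% of the 11272 shared peaks at any coding gene end, and between 3.51% of shared peaks on chromosome 18 and 10.5% on chromosome 7.

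The distance limit fell between near-identical cases. Just inside it lay Vmac/Ndufa11, whose second gene end was 997.5 bp away, with folds of 21.7 and 27.3, Inafm1/Ccdc9 at 999.5 bp with 19.8 and 20.9, and Psmd8/Catsperg1 at 999.5 bp with 5.64 and 6.45. Just outside lay Gsto1/Gsto2 at 1001 bp with 6.39 and 7.82, Dus3l/Prr22 at 1001.5 bp with 4.79 and 4.17, and Sipa1/Pcnx3 at 1003 bp with 13.4 and 8.72.

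Members as a group had slightly lower folds than shared peaks at a single gene in both replicates. Their median fold was 15.0 in replicate 1 and 12.5 in replicate 2, against 15.6 and 14.0 at the 9679 shared peaks with 1 gene in reach. On the log2 scale the difference of these medians was -0.06 in replicate 1 and -0.17 in replicate 2. The middle 50% of members ran from 10.7 to 19.6 in replicate 1 and from 7.31 to 19.5 in replicate 2, and the fold of a member in replicate 1 followed that in replicate 2 with a Spearman correlation of 0.795 over the 1593 peaks. The replicates' summits lay within 100 bp of each other at 82.6% of members. Regions of a library are not replicates of a condition, and 2 libraries of 1 condition allow no test, so differences between classes of peaks are given for each replicate as a description.

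The layout of the genes went with larger differences in fold than their number. The 814 members at divergent starts had median folds of 15.3 and 12.9, against 16.3 and 14.8 at the 7010 shared peaks at the start of 1 gene, a log2 difference of -0.09 and -0.20. The 273 members at a start and a finish had 15.0 and 12.5. The 78 members where only gene finishes were in reach had 10.5 and 6.45, against 10.2 and 6.83 at the 564 shared peaks at the finish of 1 gene, and these were near the 10.2 and 6.83 of the 11608 shared peaks with no coding gene end in reach. The 18 members at starts side by side on 1 strand had the highest medians, 21.1 and 21.4, which stood above those at the start of 1 gene by 0.37 and 0.53 on the log2 scale. The 410 members of unknown strand had 15.0 and 12.9. The ranges of all 5 layouts overlapped in both replicates.

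**Figure D1:**
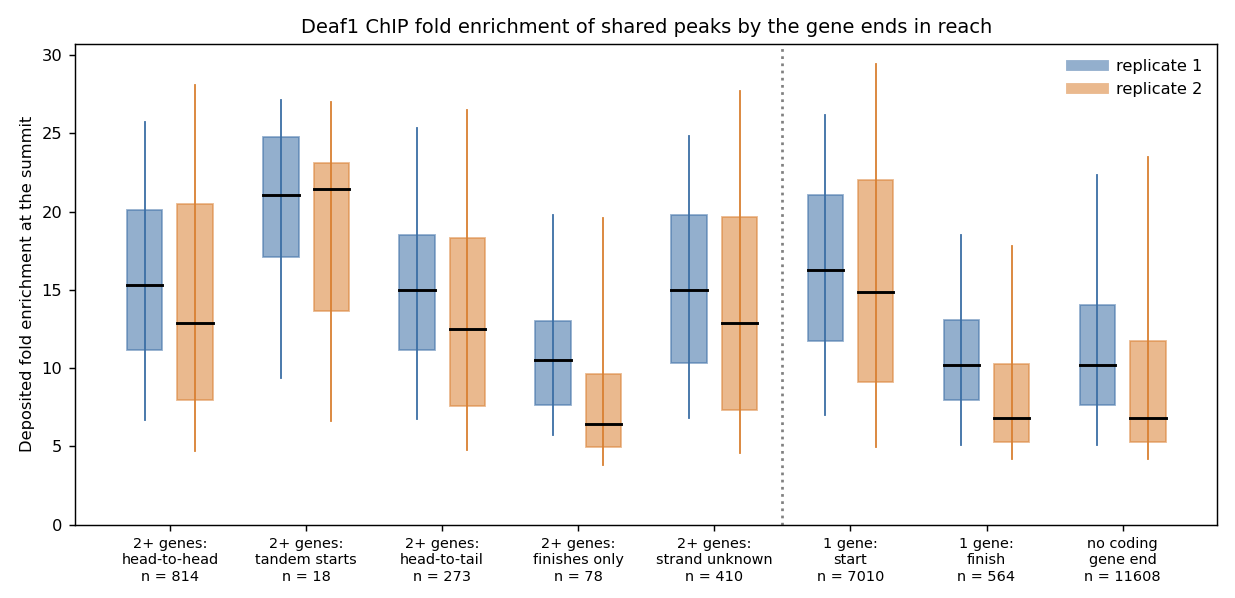
Deposited fold enrichment (vertical axis, a ratio) of shared peaks by the gene ends in reach, members left of the dotted line and other shared peaks right of it. Boxes span the quartiles, black lines the medians, and thin lines the 5th to 95th percentiles of peaks in replicate 1 (blue) and replicate 2 (orange). Head-to-head stands for divergent starts, tandem starts for starts side by side on 1 strand and head-to-tail for a start and a finish. Divergent members had medians of 15.3 and 12.9, against 16.3 and 14.8 at the start of 1 gene.

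Divergent members had a raised local background more often than peaks at the start of 1 gene, while their pileups differed little. The median summit pileup, the number of fragments covering the summit, was 60 in replicate 1 and 41 in replicate 2 at divergent members, against 59 and 44 at the start of 1 gene. The local background stood above the lowest value of the list at 60.0% and 55.2% of divergent members, against 41.5% and 35.7% of peaks at the start of 1 gene. The part of the background in the difference of folds was not tested. The merged peak had a median width of 671.5 bp at divergent members and 704 bp at the start of 1 gene.

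A fold of 20 or more in both replicates was reached by 256 members (16.1%, 95% interval 14.3 to 18), against 20.6% of the shared peaks with 1 gene in reach (19.8 to 21.4) and 12.9% of all shared peaks. By layout the share was 17.9% (146 of 814) at divergent members, 14.7% at a start and a finish, 2.56% at finishes only and 44.4% at starts side by side, where it rests on 8 of 18 members. It was 22.0% at the start of 1 gene. Intervals here and below are exact Clopper-Pearson intervals and cover counting error only. Among the side-by-side members, Slc5a3/Mrps6 had folds of 26.8 and 23.3 and Clk2/Gm45927 had 26.4 and 22.7. Mrps6 is a mitochondrial ribosomal protein, Slc5a3 is the sodium-coupled inositol transporter, and Clk2 is a kinase of splicing factors. The highest members at finishes only were Duox1/Shf (23.6 and 25), Nfix/Lyl1 (22.0 and 21.2) and Hcn2/Polrmt (19.5 and 24.3). Nfix is a transcription factor of fetal muscle development and Polrmt is the mitochondrial RNA polymerase.

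Seen from the genes, a shared peak was found at most close divergent pairs and at few convergent ones. Among 1022 pairs of genes on opposite strands with starts at most 2 kb apart, 733 (71.7%, 68.9 to 74.5) had a shared peak within 1 kb of both starts. Starts side by side on 1 strand had one at 27 of 70 pairs (38.6%), and a start close to a finish on the same strand at 241 of 911 (26.5%). A start close to a finish on the other strand had one at 49 of 198 (24.7%). Pairs with both finishes close had one at 9 of 97 (9.28%) on the same strand and at 76 of 1061 (7.16%, 5.68 to 8.88) where the genes were convergent. The stretch within 1 kb of both ends shrinks as the ends lie further apart, and this distance was not matched between layouts. By single genes, 1560 of 2025 starts in a close divergent pair (77.0%) had a shared peak within 1 kb, against 6204 of 13854 starts with no other coding gene end so close (44.8%) and 49.4% of all starts. Finishes with no close gene end had one at 3.42%, and all finishes at 6.26%. A peak near either end of a close pair can count for both ends, while a lone end has only its own. The shares of paired and lone ends were not matched for this, so they do not measure a preference for pairs.

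These shares depended on the replicate most where they were low. In replicate 1 alone 79.8% of close divergent pairs and 22.5% of convergent pairs had a peak, and in replicate 2 alone 71.8% and 7.82%. Where no shared peak was in reach, replicate 1 had a peak at 89 divergent and 163 convergent pairs, and replicate 2 at 6 and 8. A pair can count for both replicates here. The order of the layouts, divergent above a start with a finish on the same strand above convergent, was the same in both replicates.

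The share with a shared peak was even across divergent pairs with starts up to 500 bp apart or overlapping by up to 500 bp, at 631 of 778 (81.1%, 78.2 to 83.8). It was 83.6% at the 287 pairs with starts 0 to 100 bp apart and 75% at 64 pairs 200 to 300 bp apart. It was 48.8% at 41 pairs 500 to 1000 bp apart and 1 of 65 beyond that, where the stretch within 1 kb of both starts shrinks towards none. At overlaps of 1000 to 2000 bp, where the same limit holds, it was 38.2% of 55.

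**Figure D2:**
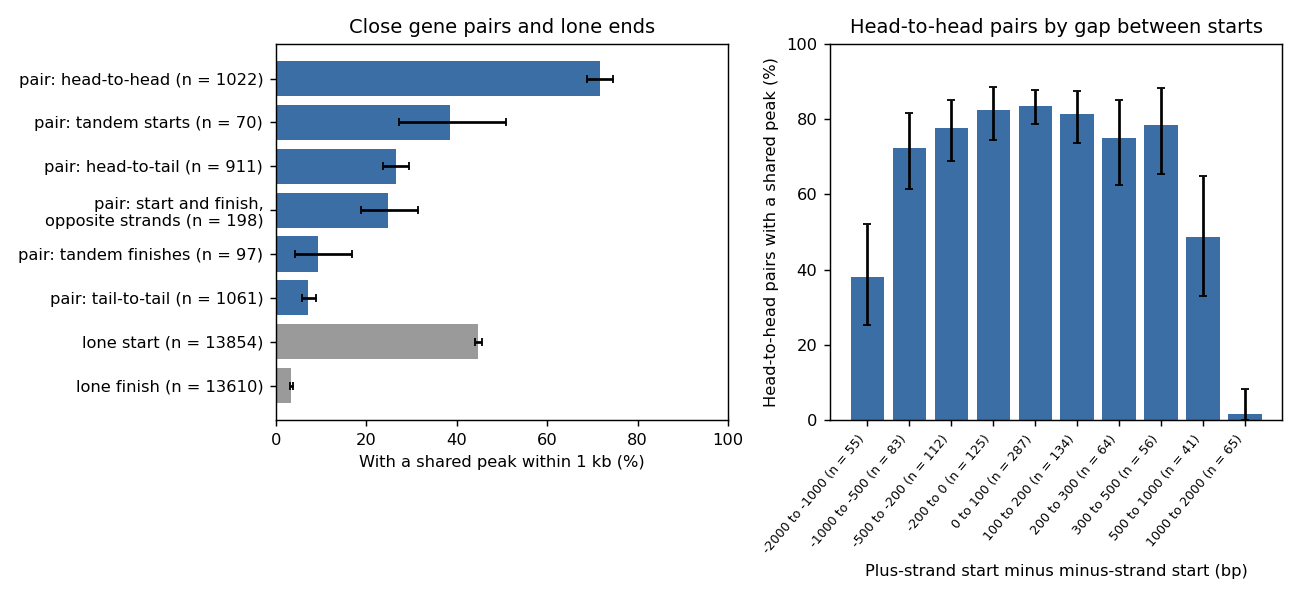
Left, share of close gene pairs (blue, by layout) and of gene ends with no other close end (grey) that had a shared peak within 1 kb; right, the same share for divergent pairs by the distance between their starts in bp, negative where the genes overlap. Error bars are exact 95% intervals for counting error, and n is the number of pairs or ends. Divergent pairs stood at 71.7% and convergent (tail-to-tail) pairs at 7.16%, and the share was lower where starts were more than 500 bp apart or overlapped by more than 1000 bp.

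At divergent members the summits sat near a start, mostly inside 1 of the genes. The plus-strand start minus the minus-strand start had a median of 42 bp, negative at the 291 of 814 overlapping at their 5′ ends. Among the 523 with starts apart the median distance was 99 bp. The nearest start was a median of 149 bp away. The position lay beyond both starts, and so inside 1 gene only, at 646 of 814 (79.4%, 76.4 to 82.1): 319 inside the plus-strand gene and 327 inside the minus-strand gene. It lay between the starts at 54 and where the 5′ ends overlap at 114. Both replicates' own summits gave the same side at 712 of 814 (87.5%). The count between the starts followed the space there: it was 10.3% of the 523 members with starts apart, where the stretch between the starts made up 8.49% of the bases in reach of both. For the 135 with starts 200 bp or more apart, 26 (19.3%) lay between, against 23.6% of the bases.

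The side of a member depends on the start that is used, since gene spans include predicted models. With the starts of the RefSeq promoter table in place of span ends, 705 members were divergent, all among the 814. The plus-strand start minus the minus-strand start had a median of 136 bp there, again negative at overlaps. Of these members, 543 (77.0%) lay beyond both starts. Of the 610 with starts apart, 116 (19.0%) lay between, where the bases between made up 14.3% of those in reach. Measured by span ends, 71.5% of divergent members lay on the gene side of their nearest start, against 83.0% at the start of 1 gene. The median over all of them was 100 bp into that gene, against 163 bp. A member outside the gene of its nearest start but inside an overlapping partner counts as outside here. By the sides given above, 54 of the 814 lay between the starts and so inside neither gene. The merged peak covered both starts at 403 divergent members (49.5%) and at least 1 at 599 (73.6%).

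**Figure D3:**
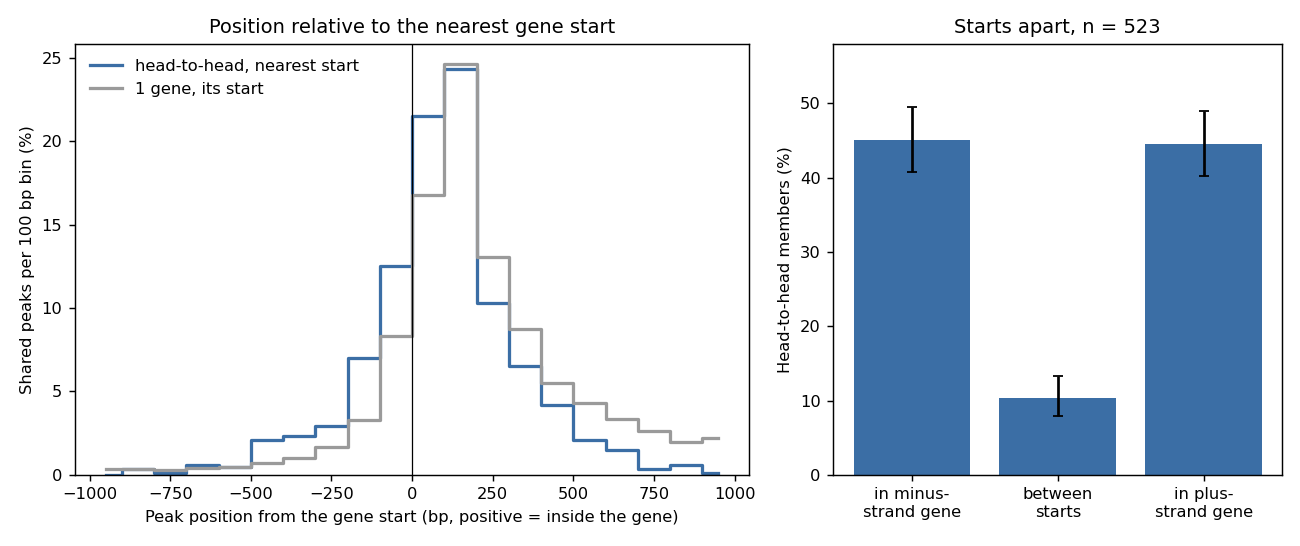
Left, distance in bp of the position from the nearest gene start, as the percent of peaks per 100 bp bin. The 814 divergent members are blue and the 7010 shared peaks at the start of 1 gene are grey. Positive is inside the gene of that start, and negative can still be inside an overlapping partner gene. Right, percent of the 523 divergent members with starts apart that lay inside the minus-strand gene, between the starts or inside the plus-strand gene, with exact 95% intervals. Both distributions peak just inside the gene of the nearest start, and 10.3% of members with starts apart lay between the starts.

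The widest overlaps had the highest folds among divergent members. The 79 members at genes overlapping by more than 500 bp at their 5′ ends had median folds of 18.3 and 18.2. At other distances between the starts the medians ran from 14.0 to 15.8 and from 10.8 to 14.7. The lowest in both replicates was that of the 101 with starts 200 to 400 bp apart. Members lying where the 5′ ends overlap had 17.8 and 16.4, against 15.1 and 12.7 inside the plus-strand gene and 15.1 and 11.4 inside the minus-strand gene. Those between the starts had 14.5 and 16.0, so that in replicate 2 they were near the overlapping class. Rab6a/Mrpl48, overlapping by 726 bp, had folds of 24.6 and 24.3, and Rpl19/Cacnb1, overlapping by 1031 bp, had 21.4 and 22.4. Rab6a is a Golgi traffic GTPase, Mrpl48 a mitochondrial ribosomal protein, Rpl19 a ribosomal protein and Cacnb1 the beta subunit of the muscle calcium channel. An overlap of this size can rest on a single outlying gene model.

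Some divergent promoters carried a separate shared peak on each side. Of 725 divergent gene sets, 88 held 2 or more members, and at 76 of these 88 (86.4%) the peaks lay 1 inside each gene, a median of 684 bp apart (336 to 1182.5). The same side was stronger in both replicates at 64 of 76, the order turned at 11, and 1 was tied in a replicate. With the sides chosen by their fold in replicate 1, the stronger had a median of 11.2 in replicate 2 and the weaker 6.83; chosen in replicate 2, at the 75 sets without a tie there, they had 16 and 11.4 in replicate 1. At Cryzl1/Itsn1 the peak inside Itsn1 had folds of 26.8 and 26.9, against 9.90 and 7.59 for that inside Cryzl1, 1080.5 bp away. Itsn1 is an endocytic scaffold protein. At Tcta/Rhoa the peak inside Rhoa, the small GTPase of actin stress fibres, had 22.7 and 28.1, against 10.2 and 5.31 inside Tcta. At Cct7/Pradc1 the peak on the side of the minus-strand gene Pradc1 had 23.9 and 28.1. That on the side of the plus-strand gene Cct7, a subunit of the cytosolic chaperonin, had 12.4 and 12. In each of these examples the lower replicate of the stronger peak was above the higher replicate of the weaker.

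The collagen IV genes gave a similar contrast between sides. Col4a1 and Col4a2, which encode the chains of the basement membrane collagen and are a textbook divergent pair, had a peak with folds of 25.9 and 24.3 inside the minus-strand gene Col4a1 and a peak with 6.70 and 4.55 inside Col4a2. The other side was the stronger at Ccdc47/Ddx42, with 18.5 and 19.6 inside the plus-strand gene and 3.0 and 5.71 inside the minus-strand gene. At Fam76b/Cep57 the order turned between replicates, with 19.2 and 10.2 inside the minus-strand gene and 16.0 and 24.7 inside the plus-strand gene.

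**Figure D4:**
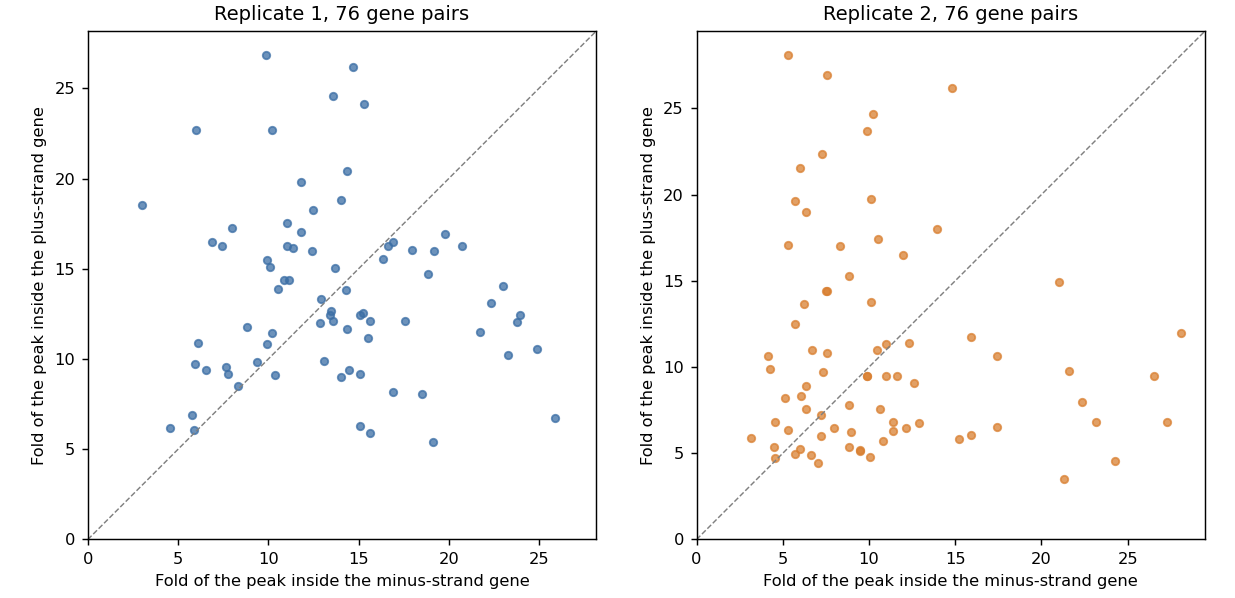
Fold enrichment of the peak inside the plus-strand gene (vertical axis) against that of the peak inside the minus-strand gene (horizontal axis) at the 76 divergent gene sets with a member on each side, replicate 1 left and replicate 2 right; each point is 1 gene set and the dashed line marks equal folds. Points lie on both sides of the line, and the stronger side was the same in both replicates at 64 of 76, with 1 tie.

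Most, but not all, divergent pairs known from textbooks were members. Of 20 such pairs, 19 had both genes in the gene table, 18 had ends within 2 kb, and 13 of these 18 had a member, with median folds of 15.7 and 13.5. Of the 12 pairs known to lie on opposite strands, 9 had a member, against 71.7% of all 1022 close divergent pairs. The chaperonin pair Hspd1/Hspe1 had folds of 14.8 and 15.2, the pair Cbx3/Hnrnpa2b1 of a heterochromatin protein and an RNA-binding protein had 24.5 and 20.6, and Ranbp1/Trmt2a had 24.2 and 15.9. The purine synthesis pair Paics/Ppat had 12.9 and 18. Atm/Npat, whose products are the DNA damage kinase and a regulator of histone genes, had 12.5 and 8.25. Over these 5 pairs the folds ran from 12.5 to 24.5 in replicate 1 and from 8.25 to 20.6 in replicate 2.

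Folds below those of these 5 pairs in replicate 1 were found at Prkdc/Mcm4 (11.5 and 7.76), Mrps12/Sars2 (11.5 and 8.34) and Ndufs3/Kbtbd4 (7.98 and 5.0). All but Mrps12/Sars2 were also below them in replicate 2. Rpa3/Umad1 had 15.7 and 11.7. Thg1l/Lsm11 had 21.0 and 11.3, but the promoter table puts both genes on the same strand. The 5 close pairs without a member were Surf1/Surf2, Hars/Hars2, Tbp/Psmb1, Trp53/Wrap53 and Brca1/Nbr1. Of these, Surf1/Surf2 and Hars/Hars2 had peaks in replicate 1 alone, with folds of 9.42 at Surf1/Surf2 and 5.30 at Hars/Hars2, and no peak of either list met the rule at the other 3. Sdhb and Atp13a2 were 7018 bp apart and Hyi was not in the gene table used here.

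The share of genes at a member differed between gene groups, within wide intervals. Of the 7048 coding genes with an end within 2 kb of another coding gene, 2820 (40.0%) were at a member. The same share was 12 of 19 for aminoacyl-tRNA synthetases (63.2%, 38.4 to 83.7), 31 of 50 for mitochondrial ribosomal proteins (62.0%, 47.2 to 75.3) and 18 of 31 for lysosome and V-ATPase genes (58.1%). It was 25 of 46 for respiratory complexes (54.3%), 34 of 66 for DNA repair and replication (51.5%), 14 of 28 for chaperones (50%) and 9 of 19 for mTORC1 signalling (47.4%). It was 8 of 21 for autophagy (38.1%), 6 of 17 for sarcomere and excitation-contraction genes (35.3%) and 6 of 51 for replication-dependent histones (11.8%, 4.44 to 23.9). The interval lay above the share of all close genes for mitochondrial ribosomal proteins and below it for histones; the lists were chosen with results of these data known, so the counts are descriptions.

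The fold at these members differed widely within the larger groups. At mitochondrial ribosomal proteins the median over 35 members was 11.8 and 8.53, against 15.0 and 12.5 over all members, with Mrps6 and Mrpl48 at the high end and Mrpl49 among the lowest of all. At respiratory complexes it was 12.7 and 8.23 over 26 members. There Tssk6/Ndufa13 had 22.7 and 28.1 and Vmac/Ndufa11 had 21.7 and 27.3. Both pairs hold a complex I subunit, but these peaks lay inside the partner gene, Tssk6 or Vmac. The other peak of Vmac/Ndufa11, inside Ndufa11, had 11.5 and 6.83. Fam126b/Ndufb3, of another complex I subunit, had 5.94 and 4.57. At DNA repair and replication it was 13.6 and 10.7 over 37 members. Gas2/Fancf, of the Fanconi anaemia core complex, had 23.6 and 26.2, Lig4/Abhd13, of the ligase of end joining, had 25.2 and 23.5, and Pcna/Cds2, of the sliding clamp of replication, had 7.14 and 5.37. The Lig4/Abhd13 peak lay inside the partner gene Abhd13.

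At aminoacyl-tRNA synthetases the median was 13.7 and 10.2 over 15 members. Iars2/Bpnt1, of the mitochondrial isoleucyl enzyme, had 27.5 and 26.9, and Lyrm4/Fars2, of the mitochondrial phenylalanyl enzyme, had 22.8 and 22.0. At lysosome and V-ATPase genes it was 15.0 and 8.84 over 21 members. The members that touch the proton pump genes Atp6v0b (B4galt2/Atp6v0b, 26.2 and 29.6) and Atp6v1a (Atp6v1a/Naa50, 25.2 and 26.5) were the highest of that group. B4galt2/Atp6v0b lay at the start of 1 gene and the finish of the other. The Atp6v1a/Naa50 peak lay inside the partner gene Naa50. At chaperones it was 13.6 and 14.8 over 17 members, with Cct7/Pradc1 and Fubp1/Dnajb4 (24.6 and 26.2) the highest. Both of these peaks lay inside the partner gene, Pradc1 or Fubp1. The other peak of each pair, inside the chaperone gene, had 12.4 and 12 at Cct7 and 13.6 and 14.8 at Dnajb4.

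Smaller groups touched nutrient sensing and muscle, with median folds of 13.2 and 15.2 over 9 mTORC1 members, 13.8 and 14.2 over 8 autophagy members and 17.2 and 13.7 over 6 sarcomere and excitation-contraction members. Lamtor2 and Lamtor1, subunits of the Ragulator complex that anchors mTORC1 to the lysosome, had 20.1 and 28.1 at Lamtor2/Ubqln4 and 20.4 and 15.2 at Lamtor1/Tomt. The autophagy conjugation genes Atg12 and Atg3 had 21.4 and 22.8 at Ap3s1/Atg12 and 22.0 and 19.0 at Slc35a5/Atg3, while Atg13/Harbi1 had 6.51 and 7.69. Among muscle genes, Mylpf, the fast skeletal regulatory myosin light chain, was at Tbc1d10b/Mylpf with 22.6 and 28.4, where the summits of both replicates lay between the starts. At the low end was Atp2a1/Rabep2, of the muscle calcium pump, with 11.2 and 8.34, where only gene finishes were in reach. Mybpc2/Spib, of fast myosin binding protein C, at a start and a finish, had 10.5 and 4.05. The histone members were H4c1/H3c1 (11.6 and 17.1), H3c3/H2bc3 (11.8 and 8.34) and H2bc1/H2ac1 (9.90 and 4.55). Histone genes are near-identical copies that can share reads, so their counts and folds are uncertain.

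The TTCG letters were more frequent in promoters of members than in coding promoters as a whole, and so was CpG. TTCG or its reverse complement was found in 68.0% of 1933 promoter windows of member starts (65.8 to 70.1), in 59.8% of 6598 windows at the start of 1 gene with a shared peak, and in 49.4% of all 17274 coding promoters. In the 1457 windows of divergent member starts the share was 70.0%, against 61.7% in the 465 windows of close divergent starts without a shared peak. Stricter forms showed no such excess in the same comparison: at least 2 TTCG were in 35.5% and 35.9% of windows, and TTCGG in 31.7% and 32.7%. The median number of CpG in a window was 25 at divergent member starts, 15 at close divergent starts without a shared peak, 22 at the start of 1 gene with a shared peak, and 14 over all coding promoters. Other letters with the same core differed alike: GTCG was in 79.2% of divergent member windows and 52.5% of all, and CTCG in 90.9% and 67.7%. How far the TTCG share follows CpG content was not tested.

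Height did not go with more TTCG. Among divergent member windows the share was 65.8% in the tercile of highest fold (547 windows, median 28 CpG) and 71.3% in the tercile of lowest fold (502 windows, median 22 CpG). Around the position itself, which could be read at the 508 members lying in a promoter window, TTCG stood at 3.78 per 1000 bases within 25 bp and at 4.34 at 150 to 200 bp. CpG stood at 124 per 1000 bases within 25 bp and at 86.7 at 150 to 200 bp. At the 97 such members with a fold of 20 or more in both replicates, TTCG stood at 1.95 within 25 bp (9 matches) and CpG at 149. At the start of 1 gene the same densities were 2.90 within 25 bp and 3.33 at 150 to 200 bp for TTCG, and 131 and 71.4 for CpG. CpG was densest at the position in each of these sets and TTCG was not.

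Other promoter elements also differed in frequency between these sets of windows. The ETS-type letters CCGGAAG were in 27.1% of divergent member windows, 20% of close divergent windows without a shared peak, 14.4% of windows at the start of 1 gene with a shared peak and 12.1% of all. TATAAA was in 2.88%, against 15.5% of close divergent windows without a shared peak, 6.55% at the start of 1 gene and 13.4% of all. GGGCGG, the core of the Sp1 site, was in 67.5%, against 44.9%, 72.3% and 46.9% in the same order. CCGGAAG was in 20.1% of the tercile of highest fold and 33.1% of that of lowest fold. Each element was searched on both strands, TTCG and CGAA can overlap each other and always hold a CpG, and a divergent pair's windows can overlap, so that 1 match may count at both genes.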

How the data were processed

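Deaf1 ChIP-seq peaks of 2 replicates of C2C12 myocytes were analysed; the 2 inputs gave no peak list used here. Alignment and peak tools named in the submitters' processing notes are BWA and MACS2, with build mm10; versions, parameters and the control were not given in the sources used here. For each ChIP sample the authors deposited 1 list, so peaks were called per sample. The fold enrichment is the authors' deposited ratio at the summit, and the −log10 p-value, −log10 q-value and score are deposited values too. Positions were converted to 1-based coordinates.

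The files give no depth. Pileup and local background of a summit were recovered by fitting a Poisson model to the deposited fold and p-value (largest misfit 4.07e-05 in −log10 p). A background was called raised when more than 0.003 fragments above the lowest of its list. Peaks of both replicates overlapping by 1 bp were merged. Gene spans were those of 21631 protein-coding RefSeq genes of GRCm38.p6, and strand came from the RefSeq promoter table for 17274 of them (79.9%); that table had no chromosome 18, so its 21 members are of unknown strand. On simulated data the steps gave the planted result at 100% of 400 loci, some without a shared peak, and the planted pileup at 100% of 473 peaks. These loci held no overlapping 5′ ends, no genes of unknown strand and no blocks of several peaks, so such cases were not checked.

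No test was run, since 2 libraries of 1 condition allow none; shares carry exact 95% Clopper-Pearson intervals for counting error only, and PCR reads are not independent molecules. The members and lists were chosen with earlier results of these data known. Named members were the 12 highest, 3 lowest and 3 middle by mean rank of fold, the 3 highest of each layout, the 2 highest of each of 10 gene lists, the 20 known divergent pairs (2 of them are counted but not reported here), and those at the window edge; members with 3 genes, examples of paired peaks and low members of lists were added after their values were seen. The densities around positions and the letters GTCG and CTCG were also added then. Python 3.11.15, pandas 2.3.3, numpy 2.4.6, scipy 1.17.1 and matplotlib 3.10.9 were used.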

Additional observations from a re-analysis of the deposited data

How the results depend on the processing

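Of 143 values recomputed under other settings for 14 results, 113 stayed within counting error or the set range, 30 moved and 0 changed sign. A window of 500 bp gave 987 members (4.31% of shared peaks) and one of 2 kb gave 2447 (10.7%). In the same order, divergent members were 60.9% and 39.7%, convergent pairs with a member 3.17% and 14.3%, and pairs of a start and a finish 20.2% and 29.6%; at 500 bp, divergent pairs with a member were 63.1%. A fold of 5 or more gave a member share of 7.57%, divergent pairs 67.5% and convergent pairs 5.18%. A −log10 q of 5 or more gave a member share of 7.37% and convergent pairs 5.66%. Equal list lengths gave 7.59% and leaving out genes with clone symbols 6.28%. With either replicate alone, members numbered 1750 to 2454 (3.74% to 6.61% of its peaks), divergent members 42.3% to 51.1%, divergent pairs 71.8% to 79.8%, convergent pairs 7.82% to 22.5%, and pairs of a start and a finish 27.4% to 35.1%. The median fold was 10.7 in replicate 1 alone and 11.4 in replicate 2 alone. Other motif forms gave 33.2% of member promoters with at least 2 TTCG, 31.2% with TTCGG and 4.04% with a spaced TTCG pair. Starts of the promoter table, chosen after seeing the data, gave 44.3% divergent members. Wider windows and single lists hold more positions by construction; for the other moves the cause was not tested.

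The fold of divergent members against the start of 1 gene and the share beyond both starts were results added after seeing the data. Under every alternative run, both log2 differences stayed below 0 in both replicates: members minus 1 gene ran from -0.22 to -0.06 and divergent members minus the start of 1 gene from -0.26 to -0.04. The share beyond both starts ran from 77.0% to 81.5%. No paired analysis was possible because only the 2 Deaf1 samples have peak lists, so no groups were compared across replicate numbers. Depth is unknown, and replicate 2 with its shorter list limits which peaks can be shared.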
